A study of Homo sapiens with 15 samples.

Results

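Genes of the TGF-beta pathway were followed in T47D cells, an established line of luminal, estrogen receptor-positive human breast cancer. The set was a fixed list of 9 gene symbols out of 60664 gene IDs in each count table: the ligand genes TGFB1, TGFB2 and TGFB3, the activin subunit gene INHBA, the receptor genes TGFBR1, TGFBR2 and TGFBR3, the signal transducer SMAD3 and the feedback inhibitor SMAD7. All 9 were found, and 8 of 9 passed the filter on low counts, INHBA being the exception.

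The 15 libraries fell into 5 groups of 3. A tamoxifen-resistant T47D line, called TR here after the labels, had been grown in charcoal-stripped serum with 4-hydroxytamoxifen (4-OHT), the active form of the estrogen receptor antagonist tamoxifen. TR cells received both drugs (TR combination), erdafitinib alone (TR erdafitinib), 4-OHT alone (TR 4-OHT) or vehicle (TR vehicle). Erdafitinib inhibits the kinases of the FGF receptor family. The parental line, called PAR, had been grown in full serum without 4-OHT and received vehicle only (PAR vehicle). Before treatment all groups were seeded for 24 h and kept for 48 h in charcoal-stripped serum medium. Treatment lasted 120 h with 1 µM 4-OHT, 5 µM erdafitinib or both, and the vehicle was 0.05% DMSO. Growth history differed between the TR and PAR lines and cannot be told apart from resistance, and each is 1 line. How the biological replicates of a group were made is not stated in the labels. The p-values therefore cover the variation among these particular libraries, and that variation may be technical.

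TGF-beta ligands are secreted with a latency peptide that holds them inactive until integrins, proteases or thrombospondin release them. Active ligand binds TGFBR2, a constitutively active kinase that phosphorylates TGFBR1, and TGFBR1 then phosphorylates SMAD2 and SMAD3, which enter the nucleus with SMAD4. TGFBR3, also called betaglycan, is a co-receptor without a kinase that presents ligand, TGF-beta2 above all, to TGFBR2. SMAD7 is induced by the pathway and blocks the receptors, closing a feedback loop. In breast epithelium the pathway is known for growth arrest in normal cells and for matrix production and epithelial-mesenchymal transition in carcinoma cells.

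The promoters of 1 ligand gene and 2 receptor genes are printed. These genes were called between TR cells with and without erdafitinib, with the limits given below. SMAD3 was called there as well, and its 5 windows are not printed. The windows are from RefSeq. Each runs 5′ to 3′ from 250 bases before to 50 after a start site in GRCh38.p14, and all 9 members had at least 1 such window, 24 in all. Capitals mark matches on either strand to any of 7 short motifs, whose letters and frequencies follow the sequences.
TGFB2, chr1:218345086-218345385, plus strand: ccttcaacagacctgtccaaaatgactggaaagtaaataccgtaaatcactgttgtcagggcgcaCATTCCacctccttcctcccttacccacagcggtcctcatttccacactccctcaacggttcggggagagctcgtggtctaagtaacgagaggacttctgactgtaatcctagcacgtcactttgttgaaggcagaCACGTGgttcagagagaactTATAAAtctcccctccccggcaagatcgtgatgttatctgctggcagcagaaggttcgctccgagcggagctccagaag
TGFBR2, chr3:30606351-30606650, plus strand: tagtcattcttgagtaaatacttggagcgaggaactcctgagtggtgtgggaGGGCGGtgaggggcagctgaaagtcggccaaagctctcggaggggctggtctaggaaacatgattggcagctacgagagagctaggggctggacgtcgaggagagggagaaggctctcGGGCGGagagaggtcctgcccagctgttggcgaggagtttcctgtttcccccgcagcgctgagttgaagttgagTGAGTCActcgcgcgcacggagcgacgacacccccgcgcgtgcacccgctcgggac
TGFBR3, chr1:91886102-91886401, minus strand: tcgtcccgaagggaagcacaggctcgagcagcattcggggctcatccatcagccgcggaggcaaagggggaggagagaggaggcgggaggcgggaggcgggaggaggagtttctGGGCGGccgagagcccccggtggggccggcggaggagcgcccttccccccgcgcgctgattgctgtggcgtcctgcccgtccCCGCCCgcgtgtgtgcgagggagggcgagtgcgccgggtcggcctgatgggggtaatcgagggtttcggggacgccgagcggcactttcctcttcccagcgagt
The TGFB2 window held a TEAD match at -185, an E-box at -49 and a TATA box at -29, counted from the start site. The TGFBR2 window, the second of 2 for this gene, held GC boxes at -198 and -80 and an AP-1 match at -6. The TGFBR3 window held GC boxes at -136 and -54, and its start site is not the gene start of the count files, unlike those of the other two. No match in these windows overlapped another. Frequencies are shares of 35116 promoter windows of the same length. The AP-1 motif was searched as TGANTCA and is held by 7.71% of windows. The cyclic AMP response element was searched as TGACGTCA and is held by 1.85% of windows. The SMAD palindrome was searched as GTCTAGAC and is held by 0.202% of windows. The GC box was searched as GGGCGG and is held by 45.0% of windows. The E-box was searched as CACGTG and is held by 7.26% of windows. The TATA box was searched as TATAAA and is held by 11.5% of windows. The TEAD motif was searched as GGAATG and is held by 14.0% of windows. No window of a member held the SMAD palindrome, which says only that these letters are not in these windows.

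Levels are given as CPM, the share of a library's counts, scaled by TMM, a correction for library composition, and levels of different genes are compared only per kilobase of exon (CPM per kb). Differences are log2 fold changes with their standard error (SE) from edgeR's quasi-likelihood test, which was run on 16210 genes in all 15 libraries. A gene was called, and is said to have risen or fallen, at a Benjamini-Hochberg adjusted p under 0.05 over all 16210 genes. Totals ranged from 6946684 to 28717380 counts per library, so 3 counts in a library equalled 0.104 to 0.432 CPM. The shallowest libraries were PAR vehicle 2 and TR 4-OHT 2. All 8 luminal epithelial markers were above 1 CPM on average in every group. The fibroblast marker COL1A2 had 0 counts in every library, and the 8 fibroblast markers summed to between 11.9 and 37.7 CPM, most of it COL1A1. Leukocyte markers summed to at most 1.44 CPM and endothelial markers to at most 0.155 CPM in any library. Within groups, libraries differed along 1 axis that held 49.5% of the within-group variance and followed the GC content of genes (Spearman 0.722 across genes). The 3207 genes richest in GC, with a median of 60.9% GC, were used to place each library on it. On the log2 scale their mean lay 0.886 above the group mean in PAR vehicle 3, the highest library, and at -1.02 in TR vehicle 1, the lowest. The position of libraries on this axis is given beside the members that followed it most closely.

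**Figure D1:**
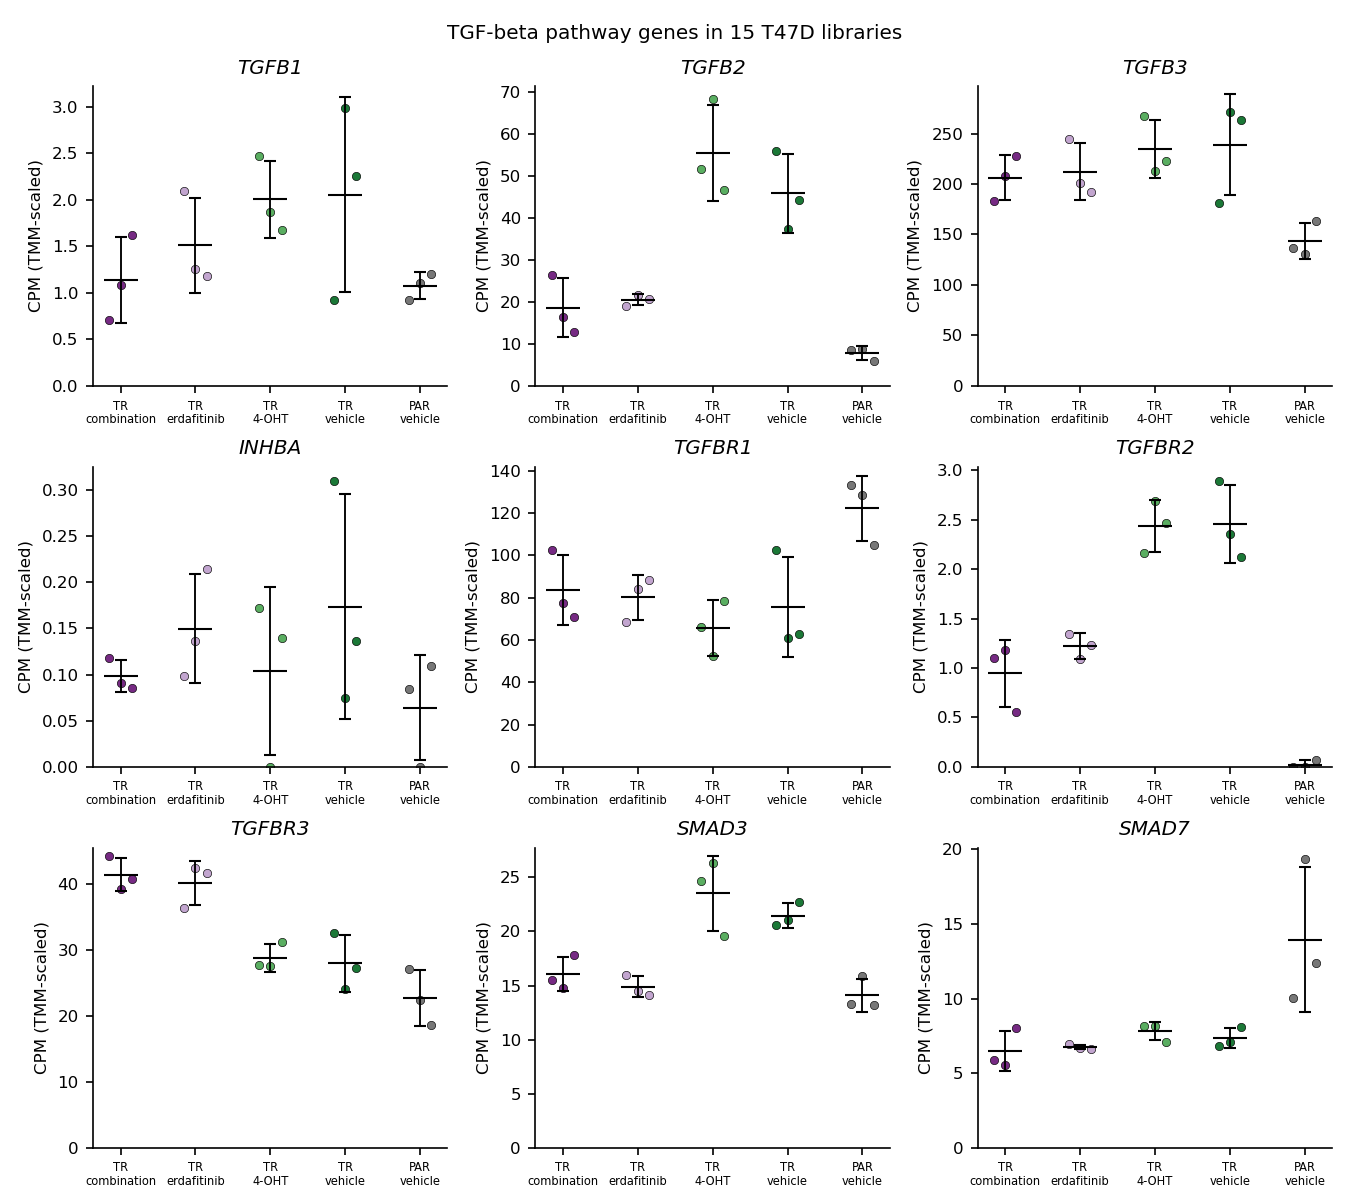
Levels of the 9 genes in CPM (vertical axes, each starting at 0) in 15 libraries, by group on the horizontal axes. Points are libraries, the long bar is the mean and the whiskers are 1 SD (n = 3). TGFB2 and TGFBR2 were highest in TR vehicle and TR 4-OHT, lower in both erdafitinib groups and lowest in PAR vehicle.

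The resistant line differed from the parental line in most of these genes. In TR vehicle against PAR vehicle, TGFB2, TGFBR2, TGFB3 and SMAD3 rose and TGFBR1 and SMAD7 fell, 6 of 8 tested members, while 35.9% of all tested genes were called. TGFB1 and TGFBR3 did not pass the test. TGFBR2 passed the filter on low counts through the TR libraries alone. In RNA from whole cultures, fewer cells that express a gene and less RNA per cell cannot be told apart. The median log2 fold change of the 8 members was 0.67, against 0.07 for all tested genes.

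TGFB2 encodes the TGF-beta2 ligand and lies on chromosome 1 (218345336 to 218444619, plus strand). It had 55.9, 37.5 and 44.3 CPM in TR vehicle libraries, against 8.55, 8.89 and 5.89 CPM in PAR vehicle libraries. Every TR vehicle library was above every PAR vehicle library. The log2 fold change was 2.58 (SE 0.279, adjusted p = 6.85e-06, edgeR). TGFB2-OT1, a gene on the same strand, covers 1371 bases, 22.7% of the exon length of TGFB2, and it had 0 counts. Reads within that overlap were left out by default, so levels of TGFB2 are understated by an amount that the counts do not give. TGFB2 was called in all 23 alternative fits. It ran against the GC axis: the library with the highest mean of GC-rich genes had the lowest TGFB2 in 4 of 5 groups, and the one with the lowest mean had the highest TGFB2 in 4 of 5. Corrected for GC and length, its log2 fold change was 2.44 (adjusted p = 5.01e-08).

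TGFB3 encodes the TGF-beta3 ligand (chromosome 14, 75958097 to 75983011, minus strand) and was the most abundant member per length, at 45.7 ± 9.59 CPM per kb in TR vehicle and 27.5 ± 3.39 in PAR vehicle (SD, n = 3 each). It had 181, 271 and 264 CPM in TR vehicle libraries, against 137, 130 and 164 CPM in PAR vehicle libraries. The groups did not overlap, and TR vehicle 1 stood well below the other two of its group. TGFB3 rose, with a log2 fold change of 0.73 and an SE of 0.176 (adjusted p = 0.00471, edgeR). In each of the 5 groups the library with the highest mean of GC-rich genes had the highest TGFB3 and the one with the lowest mean the lowest. Corrected for GC and length, the log2 fold change was 0.53 (adjusted p = 0.00891, edgeR). The call was lost when only the 2 groups entered the fit (adjusted p = 0.0581).

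TGFB1, on chromosome 19 (41301587 to 41353922, minus strand), encodes the ligand most studied in cancer. It was low, with 0.928, 2.99 and 2.26 CPM in TR vehicle libraries, against 0.922, 1.11 and 1.20 CPM in PAR vehicle libraries. TR vehicle 1, the library with the lowest mean of GC-rich genes, lay within the PAR vehicle range and the other two TR libraries lay above it. The log2 fold change of 0.93 (SE 0.457) did not pass the test (adjusted p = 0.13, edgeR). Without TR vehicle 1 it was 1.28 (adjusted p = 0.0289), and with the GC and length correction it was 0.41 (adjusted p = 0.413). TGFB1 has 63.5% GC, the highest of the members, and its library with the highest mean of GC-rich genes had the highest level in 5 of 5 groups. On the opposite strand, HNRNPUL1 overlaps 215 bases of its exons, and counting was by strand.

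INHBA, the gene of the activin A subunit (chromosome 7, 41667168 to 41705834, minus strand), had 12 counts in the 3 TR vehicle libraries and 4 counts in the 3 PAR vehicle libraries. The other groups had 7 counts in TR combination, 11 in TR erdafitinib and 8 in TR 4-OHT. The ratio of TR vehicle to PAR vehicle was 1.82, with a 95% counting interval of 0.551 to 7.74. No difference was detectable at this depth.

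TGFBR2, the type II receptor (chromosome 3, 30606601 to 30694142, plus strand), had 2.89, 2.36 and 2.12 CPM in TR vehicle libraries, against 0, 0 and 0.0727 CPM in PAR vehicle libraries. The TR vehicle libraries held 181 counts together and the PAR vehicle libraries 2, both in PAR vehicle 3. The ratio of levels was 54.9, with a 95% counting interval of 15.0 to 457. The fitted log2 fold change was 5.70 (SE 0.596, adjusted p = 4.91e-06, edgeR) and was 8.73 without PAR vehicle 3, a value that depends on the prior count. TGFBR2 was called in all 23 alternative fits. Per length it stayed far below its partner receptor: TGFBR2 was at 0.358 ± 0.0571 CPM per kb in TR vehicle, where TGFBR1 was at 11.1 ± 3.45 (SD, n = 3).

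TGFBR1, the type I receptor kinase (chromosome 9, 99104038 to 99154192, plus strand), had 103, 61 and 62.8 CPM in TR vehicle libraries, against 133, 128 and 105 CPM in PAR vehicle libraries. The groups did not overlap, but TR vehicle 1 and PAR vehicle 3 were close together. TGFBR1 fell by 0.69 on the log2 scale (SE 0.224, adjusted p = 0.0256, edgeR). The call was lost without PAR vehicle 1 (adjusted p = 0.0813), PAR vehicle 2 (0.071), TR vehicle 2 (0.111) or TR vehicle 3 (0.113), and also without the 2 shallowest libraries (0.0632) or with only these groups in the fit (0.0702). TGFBR1 ran against the GC axis: in 4 of 5 groups the library with the highest mean of GC-rich genes had the lowest TGFBR1. With the GC and length correction its log2 fold change was -0.88 (adjusted p = 8.81e-06).

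TGFBR3, the co-receptor betaglycan (chromosome 1, 91680343 to 91906335, minus strand), had 32.6, 24.1 and 27.3 CPM in TR vehicle libraries, against 27.2, 22.4 and 18.7 CPM in PAR vehicle libraries. The groups overlapped. The log2 fold change was 0.30 (95% confidence interval -0.06 to 0.67, adjusted p = 0.184, edgeR).

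SMAD3, the transducer of TGF-beta and activin signals (chromosome 15, 67063763 to 67195173, plus strand), had 20.6, 21.0 and 22.7 CPM in TR vehicle libraries, against 13.2, 15.9 and 13.2 CPM in PAR vehicle libraries. The groups did not overlap. SMAD3 rose, with a log2 fold change of 0.61 and an SE of 0.170 (adjusted p = 0.0121, edgeR). With the GC and length correction it was 0.28 and not called (adjusted p = 0.129), and it was also not called without the filter on low counts (adjusted p = 0.0577) or with only the 2 groups in the fit (0.12).

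SMAD7, the feedback inhibitor (chromosome 18, 48919853 to 48950965, minus strand), had 6.80, 7.10 and 8.10 CPM in TR vehicle libraries, against 10.1, 19.4 and 12.4 CPM in PAR vehicle libraries. The groups did not overlap, and PAR vehicle 2, a shallow library, was the highest. SMAD7 fell by 0.92 on the log2 scale (SE 0.251, adjusted p = 0.0107, edgeR). Without PAR vehicle 2 the value was -0.61 and not called (adjusted p = 0.0516). It was also not called without the filter on low counts (0.0599) or with only the 2 groups in the fit (0.0817).

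The lists of other pathway genes gave the surroundings of these members. Of 85 listed genes 66 were tested, and 30 rose and 9 fell in TR vehicle against PAR vehicle, 39 of 66, beside the 35.9% called among all genes. Their median log2 fold change was 0.64. Members and lists were chosen with earlier results of these data in view, so these counts are a description. In PAR vehicle ACVR1C, BMP7, FST and SNAI2 had 0 counts, TNC had 1, CHRD had 5 and ITGB6 had 21. At least these genes passed the filter on low counts through the TR libraries alone. Against PAR vehicle they could only rise, and they enter the counts and medians of their lists. When only the 2 groups entered the fit, 22 of these genes were called.

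Among 9 tested ligands of the wider superfamily, 2 rose and 1 fell, and the median log2 fold change was 0.04. GDF11, a ligand that signals through activin receptors, was at 122 ± 15.9 CPM in TR vehicle and 22.3 ± 3.59 CPM in PAR vehicle (log2 fold change 2.45, adjusted p = 1.79e-07, edgeR). BMP7 had 48 counts in TR vehicle and 0 in PAR vehicle. Set against 3 counts over the PAR group, BMP7 was 9.70-fold higher (lower counting limit of the ratio 7.59). GDF15, a stress-induced member of the superfamily, fell (-3.05, adjusted p = 0.0356). Without PAR vehicle 3 it was not called (-1.43, adjusted p = 0.281), nor was it without TR vehicle 1 (0.0843), TR vehicle 2 (0.0888) or TR vehicle 3 (0.0603).

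Among 9 tested receptors and co-receptors, 4 rose and none fell, and the median was 0.37. ACVR1C, the type I receptor ALK7, had 129 counts in TR vehicle and 0 in PAR vehicle. Set against 3 counts over the PAR group, ACVR1C was 26.1-fold higher (lower counting limit of the ratio 20.9). The other three were the endoglin gene ENG (2.33, adjusted p = 0.0357) and the BMP receptors BMPR1A (0.72, 0.0238) and BMPR2 (0.77, 0.0474). These 3 calls depended on single libraries. Without TR vehicle 1, BMPR1A had an adjusted p of 0.096 and BMPR2 of 0.201, and without PAR vehicle 3 the values were 0.0661 and 0.13. BMPR2 was also not called without TR vehicle 3 (0.0534), TR 4-OHT 2 (0.053), TR 4-OHT 3 (0.0564), TR erdafitinib 2 (0.0523) or TR erdafitinib 3 (0.0521). ENG was not called without PAR vehicle 1 (0.109), PAR vehicle 2 (0.108), TR vehicle 2 (0.109) or TR vehicle 3 (0.097).

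Of the other 6 SMADs 2 rose and 2 fell, with 2 positive and 4 negative values and a median log2 fold change of -0.32. SMAD9 (1.21, adjusted p = 0.00301, edgeR) and the inhibitory SMAD6 (1.31, 0.00629) rose, and SMAD1 (-0.78, 0.00361) and SMAD5 (-0.76, 0.0182) fell. SMAD2 (-0.39, adjusted p = 0.159) and the common partner SMAD4 (-0.26, adjusted p = 0.353) did not pass the test. SMAD5 was not called without PAR vehicle 1 (0.0625), PAR vehicle 2 (0.0754), TR vehicle 2 (0.0856) or TR vehicle 3 (0.0773), and none of the SMADs on this list was called with only the 2 groups in the fit.

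Genes of ligand latency and activation and of extracellular inhibitors rose in 9 of 13 tested cases and fell in 2, with a median log2 fold change of 1.77. ITGB6, the beta subunit of the integrin that releases latent TGF-beta, was at 62.1 ± 14.4 CPM in TR vehicle and 0.334 ± 0.300 CPM in PAR vehicle (log2 fold change 7.16, adjusted p = 1.41e-08, edgeR). Like CHRD and FST, ITGB6 passed the filter through TR libraries alone and could only rise. Its partner subunit ITGAV rose by 1.32 (adjusted p = 0.00124), and LTBP1, which tethers latent ligand to the matrix, by 1.03 (1.34e-05). CHRD, the BMP antagonist chordin, had 1250 counts in TR vehicle and 5 in PAR vehicle (7.09, 3.61e-05). The list also holds inhibitors of ligands, FST and FSTL3 among them, and these were among the 9. BAMBI, a decoy receptor, and THBS1, a latency activator, were the 2 that fell.

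Among 11 intracellular negative regulators, 4 rose and 3 fell, with a median of 0.06. PMEPA1, which is induced by TGF-beta and withholds SMAD2 and SMAD3 from the receptor, was at 174 ± 32.4 CPM in TR vehicle and 0.992 ± 0.171 CPM in PAR vehicle (7.39, adjusted p = 4.5e-11, edgeR). LDLRAD4, a relative of PMEPA1, rose by 1.09 (0.00102). The ubiquitin ligase gene NEDD4L (-0.85, 9.52e-05) and the co-repressor gene TGIF2 (-0.75, 0.000432) fell. SMAD7, of the same functional kind, fell as given above.

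Of 14 tested genes known to be induced by TGF-beta in epithelial cells, 9 rose and none fell, with a median log2 fold change of 2.48. At least SNAI2 and TNC among the 9 passed the filter through TR libraries alone and could only rise. IL11 and PTHLH, also among the 9, were at 0.515 to 1.29 and 0.818 to 2.84 CPM in TR libraries without erdafitinib. With log2 fold changes of 3.67 and 4.06 they were very low in PAR vehicle, so the filter favoured a rise for them too. These genes enter the count and the median. TNC, the tenascin C gene, had 8258 counts in TR vehicle and 1 in PAR vehicle, which puts the ratio of levels at 5008, with a 95% counting interval of 899 to 197813. CDKN2B, which encodes the cell cycle inhibitor p15, was at 56.6 ± 0.304 CPM in TR vehicle and 4.92 ± 1.05 CPM in PAR vehicle (3.50, adjusted p = 1.77e-08, edgeR). SNAI2, a transcription factor of epithelial-mesenchymal transition, had 113 counts in TR vehicle and 0 in PAR vehicle. Set against 3 counts over the PAR group it was 22.8-fold higher (lower 95% counting limit of the ratio 18.3). The fibronectin gene FN1 rose by 1.17 (7.68e-05). Setting the genes with 0 counts in PAR at their value against 3 counts left every list median as given. No median could change by this step, because those values still lay above the medians of their lists. Of 4 tested BMP target genes, ID2 fell (-0.82, adjusted p = 0.0275), a call lost without PAR vehicle 2 (0.101), PAR vehicle 3 (0.0626), TR vehicle 1 (0.0722) or TR vehicle 3 (0.101). The fibroblast marker COL3A1 moved with this list, with 148 counts in TR vehicle and 0 in PAR vehicle, while COL1A2 was at 0 and COL1A1 was not called (0.58, adjusted p = 0.35). Its part in the result was not tested.

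**Figure D2:**
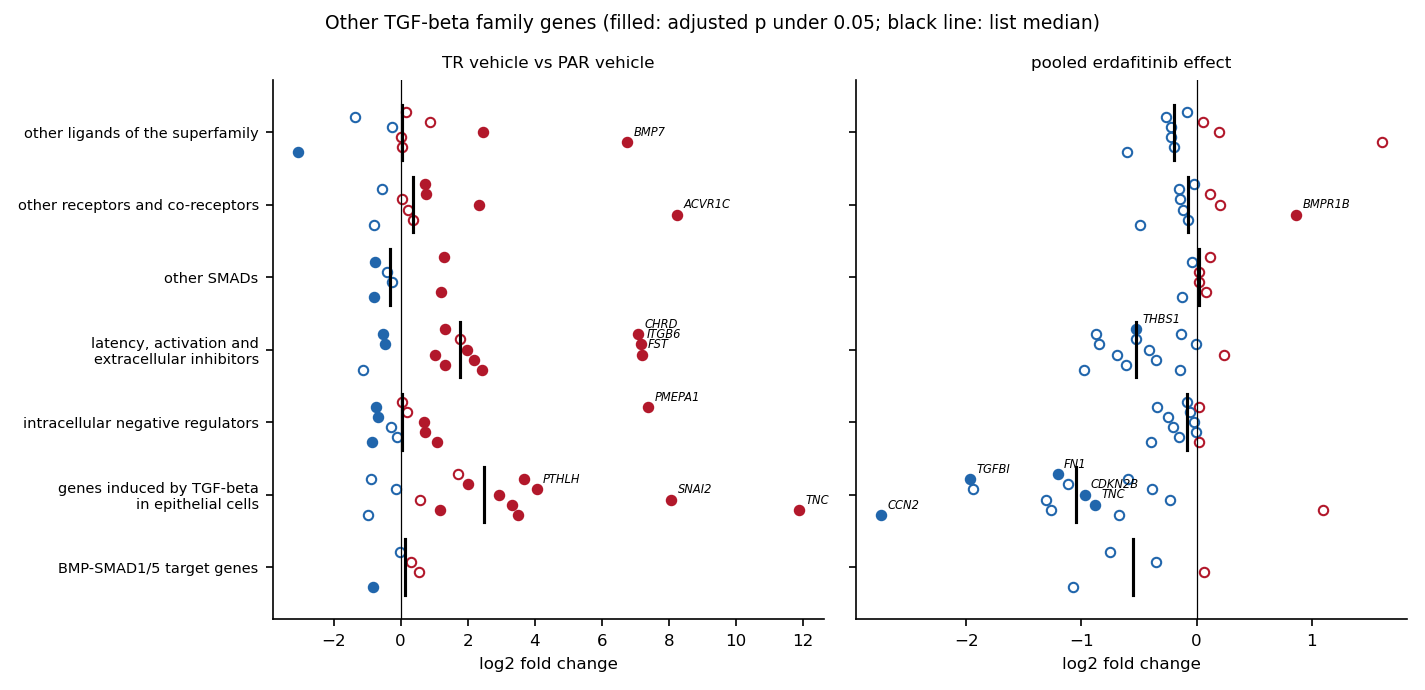
Log2 fold changes (horizontal axes) of 66 tested pathway genes outside the 9 members, by list (vertical axis), for TR vehicle against PAR vehicle (left) and for the pooled erdafitinib effect (right). Each point is a gene, filled where the adjusted p was under 0.05, and vertical bars are list medians. The list of TGF-beta-induced genes has its median at 2.48 on the left and at -1.04 on the right.

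Erdafitinib was tested in TR cells without 4-OHT, with 4-OHT, and pooled over both, which compares 6 libraries with 6. TR vehicle enters both this comparison and the one with PAR vehicle, so these comparisons are not independent. TGFB2, TGFBR2 and SMAD3 fell and TGFBR3 rose in the pooled comparison, 4 of 8 members, while 1.71% of all tested genes were called. The median log2 fold change was -0.36 for the 8 members, against -0.01 for all tested genes. For each of these 4 genes the 6 erdafitinib libraries and the 6 others did not overlap. The share of all tested genes with such a separation was not counted, so it describes these called genes and adds no support to their calls.

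TGFB2 was at 19.1, 21.7 and 20.8 CPM in TR erdafitinib and 55.9, 37.5 and 44.3 CPM in TR vehicle. With 4-OHT it was at 26.5, 16.4 and 12.9 CPM in TR combination and 51.7, 68.4 and 46.6 CPM in TR 4-OHT. All erdafitinib libraries lay at 26.5 CPM or below and all others at 37.5 CPM or above. The pooled log2 fold change was -1.37 (SE 0.185, adjusted p = 0.0014, edgeR) and was called in all 23 alternative fits. With the GC and length correction it was -1.49 (adjusted p = 3.97e-06). TGFB2 was the only member called between TR combination and TR 4-OHT (-1.58, SE 0.264, adjusted p = 0.0114), where 0.642% of all genes were called. This call was lost without TR 4-OHT 2 (-1.40, adjusted p = 0.0596), TR combination 2 (-1.49, 0.0815) or TR combination 3 (-1.38, 0.057), and with only these groups in the fit (-1.58, 0.0558). Without 4-OHT the log2 fold change was -1.16 (SE 0.260) and did not pass the test (adjusted p = 0.205). In that comparison, TR erdafitinib against TR vehicle, 0.0925% of all genes and none of the members were called by edgeR, with 4 members at an unadjusted p under 0.05 and 1 called by DESeq2.

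TGFBR2 was at 1.34, 1.09 and 1.23 CPM in TR erdafitinib and 2.89, 2.36 and 2.12 CPM in TR vehicle. It was at 1.10, 1.18 and 0.556 CPM in TR combination and 2.17, 2.69 and 2.46 CPM in TR 4-OHT. The erdafitinib groups held 96 and 67 counts. All erdafitinib libraries lay at 1.34 CPM or below and all others at 2.12 CPM or above. The pooled log2 fold change was -1.18 (SE 0.268, adjusted p = 0.0404, edgeR). The call was lost when any 1 of the 12 TR libraries was left out (log2 fold change -1.27 to -1.05, adjusted p up to 0.139) and kept when any PAR library was. Apart from the pooled value, TGFBR2 was not called without 4-OHT (-0.999, adjusted p = 0.853) or with it (-1.35, adjusted p = 0.195).

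SMAD3 was at 16, 14.5 and 14.2 CPM in TR erdafitinib and 20.6, 21.0 and 22.7 CPM in TR vehicle. It was at 15.5, 14.8 and 17.8 CPM in TR combination and 24.6, 26.3 and 19.6 CPM in TR 4-OHT. The transducer was thus lower in each erdafitinib library than in any TR library without the drug. The pooled log2 fold change was -0.54 (SE 0.119, adjusted p = 0.0355, edgeR). The call was lost without TR vehicle 2 (0.0767) or 3 (0.118), TR 4-OHT 1 (0.111) or 2 (0.0798), any TR erdafitinib library (0.0693, 0.123 and 0.135), or TR combination 1 (0.104) or 2 (0.112), and also without the filter on low counts (0.212).

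TGFBR3 moved the other way. It was at 36.3, 42.4 and 41.7 CPM in TR erdafitinib and 32.6, 24.1 and 27.3 CPM in TR vehicle. It was at 44.2, 39.3 and 40.9 CPM in TR combination and 27.7, 27.6 and 31.3 CPM in TR 4-OHT. Each erdafitinib library was above all TR libraries without the drug. The pooled log2 fold change was 0.52 (SE 0.119, adjusted p = 0.0404, edgeR). The value was 0.52 both without and with 4-OHT, with adjusted p of 0.625 and 0.299. The pooled call was kept without TR vehicle 1 or any PAR library and lost without any 1 of the other 11 TR libraries (log2 fold change 0.47 to 0.56, adjusted p up to 0.131), and also without the filter on low counts (0.153).

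The other 4 tested members were not called in the pooled comparison. TGFB1 had a log2 fold change of -0.63 (95% confidence interval -1.29 to 0.03, adjusted p = 0.464, edgeR), with 0.709 to 2.1 CPM under erdafitinib (median 1.22) and 0.928 to 2.99 CPM without it (median 2.06). TGFB3 (-0.18, interval -0.44 to 0.09), TGFBR1 (0.22, interval -0.12 to 0.55) and SMAD7 (-0.19, interval -0.57 to 0.19) also had intervals that include no change. In all 4 genes the ranges of the 2 sets of libraries overlapped.

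**Figure D3:**
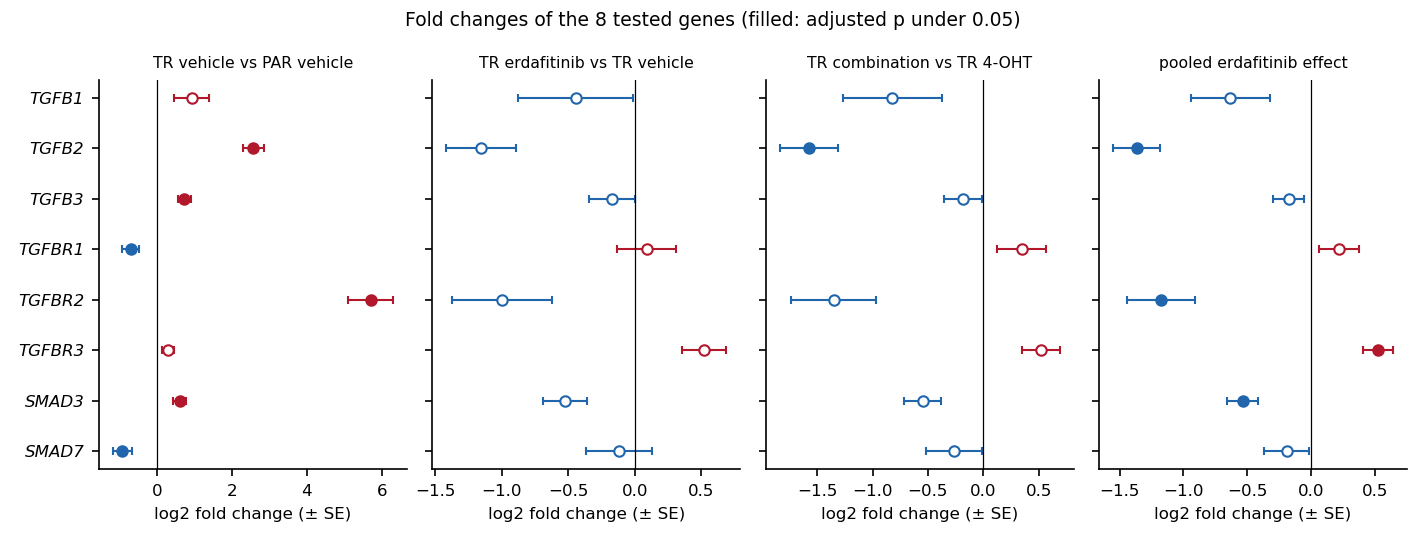
Log2 fold changes (horizontal axes) with 1 SE for the 8 tested members (vertical axis) in 4 comparisons. Filled points had an adjusted p under 0.05. TGFB2 was positive in TR vehicle against PAR vehicle (2.58) and negative in the 3 erdafitinib comparisons (-1.16, -1.58 and -1.37). The horizontal scales differ between panels.

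Of the 66 other pathway genes tested, 1 rose and 6 fell in the pooled comparison, beside the 1.71% called among all genes. The lists were chosen with earlier results of these data in view, so these counts too are a description. The BMP receptor gene BMPR1B rose, at 37.5 ± 4.66 CPM in TR erdafitinib and 20.0 ± 6.86 CPM in TR vehicle, and at 38 ± 7.31 CPM in TR combination and 21.5 ± 2.18 CPM in TR 4-OHT (0.86, adjusted p = 0.0266, edgeR). Its call was lost without TR vehicle 2 (0.0648) or 3 (0.0879), TR 4-OHT 1 (0.0803) or 2 (0.0691), TR erdafitinib 2 (0.0851) or 3 (0.076), or TR combination 1 (0.0771) or 3 (0.0594). THBS1, whose protein activates latent TGF-beta, fell (-0.53, adjusted p = 0.00914).

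The list of TGF-beta-induced genes had 5 of 14 members fall and none rise, beside the 1.71% called among all genes. Its median log2 fold change was -1.04. The log2 fold change was negative in 13 genes and positive in 1, PTHLH, which was not called. The share of negative values over all tested genes was not counted. Some of the 13 were low under erdafitinib, such as IL11, at 0.182 to 0.477 CPM under it and 0.515 to 1.29 CPM without it. Such genes may have passed the filter on low counts mainly through libraries without the drug, which favours a negative value. They enter the count and the median. PTHLH was at 3.24 to 4.45 CPM under erdafitinib and 0.818 to 2.84 CPM without it. FN1 was at 41.4 ± 1.83 CPM in TR erdafitinib and 86.0 ± 3.20 CPM in TR vehicle, and at 37.7 ± 6.09 CPM in TR combination and 97.0 ± 17.7 CPM in TR 4-OHT (-1.21, adjusted p = 6.55e-05, edgeR). CDKN2B fell by 0.97 on the log2 scale (0.00138) and CCN2, a matrix-associated growth factor gene, fell by 2.74 (0.00346). TNC (-0.88, 0.0158) and TGFBI (-1.97, 0.0198) fell as well. TGFBI was near the floor, at 0.0681 to 0.262 CPM under erdafitinib and 0.412 to 1.05 CPM without it, where 3 counts equalled 0.104 to 0.432 CPM. CCN2 was low too, at 0.0428 to 0.647 CPM under erdafitinib and 1.29 to 2.60 CPM without it. FN1, CDKN2B, CCN2 and THBS1 were called in all 23 alternative fits of this pooled value. The count of the list was 3 without TR vehicle 3, TR 4-OHT 1, TR erdafitinib 2, TR erdafitinib 3, TR combination 1 or TR combination 2, in each of which TNC and TGFBI were lost. TGFBI was also not called without TR vehicle 2 (0.0636). COL3A1 moved with this list too, at 0.300 to 0.721 CPM under erdafitinib and 1.24 to 2.99 CPM without it (-1.89, adjusted p = 0.00502), with COL1A2 at 0 and COL1A1 not called (-0.23, adjusted p = 0.887). Its part in the result was not tested. None of the 6 other SMADs and none of the 11 intracellular negative regulators was called.

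In the separate comparisons fewer of these 66 genes were called, beside 0.0925% of all genes without 4-OHT and 0.642% with it. FN1 fell in TR erdafitinib against TR vehicle (-1.05, adjusted p = 0.0266, edgeR), the only 1 there. That call was lost without TR vehicle 2 (0.0903) or 3 (0.125), TR 4-OHT 1 (0.056) or any TR erdafitinib library (0.193, 0.115 and 0.177). In TR combination against TR 4-OHT, FN1 fell by 1.36 on the log2 scale (0.000759) and was called in all 23 alternative fits. THBS1 (-0.74, 0.0182), CDKN2B (-0.99, 0.0226) and CCN2 (-3.06, 0.0425) fell as well. CDKN2B was not called without any 1 of the TR 4-OHT libraries (0.111, 0.106 and 0.0551) or TR combination libraries (0.0573, 0.06 and 0.0926). THBS1 was not called without TR 4-OHT 1 (0.0735) or 2 (0.0822) or TR combination 2 (0.085) or 3 (0.0833). CCN2, which had 14 counts in TR combination and 110 in TR 4-OHT, was called in 5 of 15 fits that left out 1 library, and was lost without TR vehicle 2 (0.0725) or 3 (0.072), any TR 4-OHT library (0.204, 0.0646 and 0.105), any TR erdafitinib library (0.0663, 0.0636 and 0.0624), or TR combination 1 (0.221) or 3 (0.161).

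4-OHT was compared with vehicle in TR cells, and combination with erdafitinib. Of the members, none was called in TR 4-OHT against TR vehicle, where 0% of all genes were called and none of the members had an unadjusted p under 0.05. Log2 fold changes lay between -0.20 for TGFBR1 (95% confidence interval -0.68 to 0.28) and 0.27 for TGFB2 (-0.28 to 0.82). In TR combination against TR erdafitinib 0% of all genes were called as well, with member values from -0.41 for TGFB1 (-1.35 to 0.53) to 0.11 for SMAD3 (-0.25 to 0.47). Over all genes 127 and 104 had an unadjusted p under 0.05, and DESeq2 called 0 and 18. Whether erdafitinib acted differently with and without 4-OHT was tested as an interaction, where 0% of all genes were called, 134 had an unadjusted p under 0.05 and DESeq2 called 1. None of the 66 other pathway genes was called in these 3 comparisons. For TGFB2 the interaction was -0.42 (95% confidence interval -1.20 to 0.36) and for TGFBR2 -0.35 (-1.49 to 0.78).

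TR combination was also set beside PAR vehicle, a comparison that shares PAR vehicle with the first. TGFB2, TGFBR2, TGFBR3 and TGFB3 rose and SMAD7 fell, 5 of 8 members, while 34.6% of all genes were called. TGFB2 was at 26.5, 16.4 and 12.9 CPM in TR combination, against 8.55, 8.89 and 5.89 CPM in PAR vehicle (log2 fold change 1.27, adjusted p = 0.0022, edgeR). TGFBR2 had 67 counts in TR combination and 2 in PAR vehicle, a ratio of 21.6 with a 95% counting interval of 5.76 to 182. TGFBR3 rose by 0.87 (adjusted p = 0.00123), TGFB3 rose by 0.52 (0.0323) and SMAD7 fell by 1.09 (0.00389). The fitted TGFBR2 value of 4.34 was 7.35 without PAR vehicle 3. TGFB3 was not called without PAR vehicle 1 (0.0899), PAR vehicle 2 (0.102), TR combination 2 (0.0702) or TR combination 3 (0.118), or with only these groups in the fit (0.0645) or the GC and length correction (0.29, adjusted p = 0.123). TGFBR1 (-0.55, adjusted p = 0.0738) was not called, but was without TR vehicle 1 (0.0313) or TR combination 1 (0.0466) and with the GC and length correction (-0.79, adjusted p = 2.7e-05). SMAD3 (0.19, adjusted p = 0.427) and TGFB1 (0.07, adjusted p = 0.926) did not pass the test. Of the 66 other pathway genes, 23 rose and 11 fell. On the list of 14 TGF-beta-induced genes 6 rose and TGFBI fell.

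In the order of group means, a break is a pair of neighbours whose library ranges, of 3 libraries each, were apart. The share of all tested genes with such breaks was not counted. The breaks therefore describe these genes and add no support to a difference. For TGFB2 the order from high to low was TR 4-OHT (55.5 CPM), TR vehicle (45.9), TR erdafitinib (20.6), TR combination (18.6) and PAR vehicle (7.78), with library ranges apart between TR vehicle and TR erdafitinib and between TR combination and PAR vehicle. TGFBR2 had the same 2 breaks, between TR 4-OHT (2.44 CPM) and TR erdafitinib (1.22) and between TR combination (0.946) and PAR vehicle (0.0242). SMAD3 had 1 break, between TR vehicle (21.4 CPM) and TR combination (16.1), and the ranges of TR erdafitinib (14.9) and PAR vehicle (14.1) overlapped. TGFBR3 had 1 break, between TR erdafitinib (40.2 CPM) and TR 4-OHT (28.9). TGFB3, TGFBR1 and SMAD7 had their only break next to PAR vehicle, and TGFB1 and INHBA had none.

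**Figure D4:**
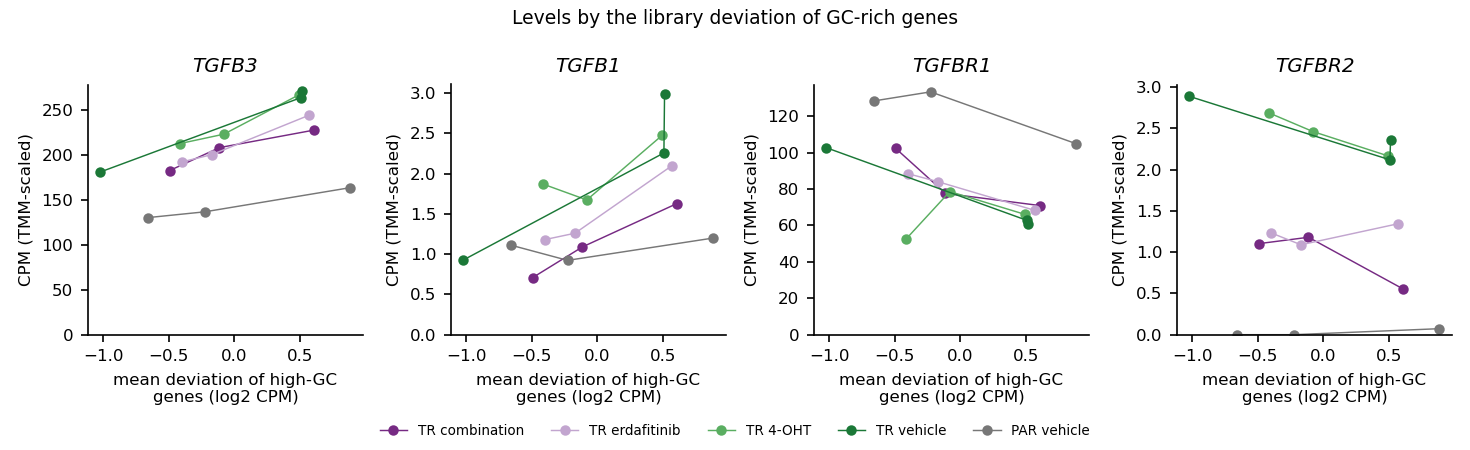
Levels of 4 members in CPM (vertical axes) against the mean deviation of GC-rich genes from the group mean in each library (horizontal axes, log2 CPM). Each point is a library and lines join the 3 libraries of a group. Within every group TGFB3 was lowest in the library with the lowest deviation and highest in the one with the highest, which for TGFBR2 held at the high end in 2 of 5 groups and at the low end in none.

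For each tested member, the 3 protein-coding genes with the most similar pattern over the 15 libraries were taken by Pearson r of log2 CPM, among 9955 genes with a mean of at least 2 on that scale. These values describe the libraries, which share their groups, depth and GC axis. The genes nearest TGFB2 were FSTL1 (r = 0.983), ARL15 (0.980) and CDC42EP3 (0.977). Nearest TGFBR2 were CDKN2B (0.992), FAT2 (0.984) and ANXA1 (0.983), and nearest SMAD3 were FN1 (0.922), PADI2 (0.911) and TNFRSF21 (0.898). TGFBR3 was nearest to MAP2K6 (0.954), BMPR1B (0.949) and BRCA2 (0.939). TGFB3 was nearest to MYL9 (0.992), NLGN2 and CACNG4, TGFBR1 to PTBP3 (0.985), PNPLA8 and CCDC117, SMAD7 to BRD3 (0.957), ZNF599 and ANKRD16, and TGFB1 to GNAS (0.968), ORMDL3 and TSPAN14. CDKN2B, FN1 and BMPR1B are thus also on the pathway lists described above.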

How the data were processed

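Total RNA was sequenced in paired ends after stranded library preparation, per the labels' protocols. The deposited files hold raw fragment counts by gene from featureCounts 2.0.1, run for reverse-stranded pairs on Ensembl 104, per the file headers. HISAT2 2.1.0, GRCh38 and featureCounts 1.4.6-p1 are what the submitters' processing notes name. By default the counter drops reads that match more than 1 place or gene. Trimming is not given in the sources used here.

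The analysis used edgeR 4.0.16 under R 4.3.3. filterByExpr kept 16210 of 60664 genes, and TMM factors ran from 0.907 to 1.102. A single quasi-likelihood model of the 5 group means was fitted to the 15 libraries (residual df 10, common dispersion 0.095). Each comparison had its F test with Benjamini-Hochberg adjustment over all kept genes, and the fit was tested on simulated data. Standard errors are the absolute log2 fold change over the square root of F, and 95% confidence intervals of log2 fold changes use the t quantile at the degrees of freedom of that test. Genes with 0 counts in a group were set against 3 counts over it, and genes with few counts in a group were given as ratios with exact 95% counting intervals, which cover counting error only. Alternatives were DESeq2 1.42.0, DESeq2 size factors, other filters, only the groups compared, a replicate block, a GC and length correction (GENCODE 29, with 177 kept genes lacking a value), the 2 shallowest libraries left out, each library left out, and other CPM scalings. The members and lists were chosen with earlier results of these data known. Named were all members and, per list, up to 4 called genes with the smallest p in TR vehicle against PAR vehicle and up to 3 in other comparisons, besides genes named to complete a count or to give its dependence on single libraries or markers. Promoters came from RefSeq.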

Additional observations from a re-analysis of the deposited data

How the results depend on the processing

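Over 23 alternative fits, member log2 fold changes kept direction and side of the threshold in 1343 of 1472 cases, 65 lost and 10 gained a call, and 54 changed sign. Most of these cases were uncalled in the main fit and had no call to lose. In the pooled erdafitinib effect, TGFBR2, TGFBR3 and SMAD3 were called in 3, 4 and 6 of the 15 fits that left out 1 library. In the 8 other fits they were called in 6, 4 and 6. No value that changed sign was called in either fit, and the largest was 0.3178 in size. Called genes of the other lists kept their calls in 1753 of 1946 cases, and list counts stayed within 1.5 times in 1193 of 1288. Depth limited INHBA, TGFBR2 and TGFB1, which had few counts per library. The cause of each change below was not tested.

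Members called in TR vehicle against PAR vehicle numbered 6, and 2 with only the groups compared, which leaves fewer samples (all genes 5817 and 3408). In TR erdafitinib against TR vehicle members numbered 0, with 1 by DESeq2 and 2 with the GC and length correction. All genes numbered 15 there, with 87 by DESeq2, 26 without the filter, 0 with only the groups compared, 9 with the replicate block and 121 with the GC and length correction. In TR combination against TR 4-OHT members numbered 1, with 2 by DESeq2, 0 with only the groups compared, 3 with the GC and length correction and 0 without the 2 shallowest libraries. All genes numbered 104 there, with 288 by DESeq2, 65 with only the groups compared and 422 with the correction. TR combination against TR erdafitinib had 0 genes called, with 18 by DESeq2, 9 without the filter and 10 with the correction. In the pooled erdafitinib effect members numbered 4, with 1 without the filter and 1 with the replicate block. All genes numbered 278 there, with 580 by DESeq2 and 967 with the correction. The interaction had 0 genes called and 1 by DESeq2.

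With each library left out, all genes called ranged from 45 to 137 in TR combination against TR 4-OHT, from 2 to 19 in TR erdafitinib against TR vehicle and from 140 to 445 in the pooled effect. Members called ranged from 0 to 1 in TR combination against TR 4-OHT and from 1 to 4 in the pooled effect.

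Of the uncalled values that changed sign, TGFB1 in TR 4-OHT against TR vehicle was -0.038, and 0.0159 with the replicate block, 0.1987 with the correction and 0.0046 without the 2 shallowest libraries. TGFB3 there was -0.027, and 0.0388 without those libraries. TGFBR3 in the interaction was 0.0012, and -0.0014 with the CPM filter, -0.0126 with the block, -0.0071 with the correction and -0.0304 without those libraries. SMAD3 in the interaction was -0.0221, and 0.066 with the correction and 0.0637 without those libraries. With the correction TGFB1 was -0.1276 and SMAD3 -0.113 in TR combination against PAR vehicle. With each library left out, the interaction ranged from -0.134 to 0.0648 for SMAD3, -0.1178 to 0.151 for TGFB3, -0.0268 to 0.4103 for TGFBR1 and -0.1191 to 0.0976 for TGFBR3. TR combination against TR erdafitinib ranged from -0.259 to 0.0427 for SMAD7, -0.4861 to 0.0429 for TGFB2, -0.1412 to 0.0657 for TGFB3, -0.1092 to 0.1468 for TGFBR1 and -0.0261 to 0.0846 for TGFBR3. TR 4-OHT against TR vehicle ranged from -0.3764 to 0.3178 for TGFB1, -0.1915 to 0.0671 for TGFB3, -0.3493 to 0.0883 for TGFBR1, -0.1168 to 0.1151 for TGFBR2 and -0.0596 to 0.1669 for TGFBR3. TGFB1 in TR combination against PAR vehicle ranged from -0.2813 to 0.3352, and TGFBR1 in TR erdafitinib against TR vehicle from -0.045 to 0.3751.

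Replicate numbers recur across groups. Deviations of same-numbered libraries correlated at -0.827 to 0.772 (median -0.0341, 30 pairs) and those of different numbers at a median of -0.00273 (60 pairs). The GC axis held 49.5% of the within-group variance, so these correlations cannot decide whether equal numbers mark pairs. The labels do not say either, and the main fit took the libraries as unpaired. With the replicate block the pooled erdafitinib effect had 186 genes called and TR vehicle against PAR vehicle 5551. Scaling CPM by all counts or by counts outside the mitochondrial genome moved 34 of 90 member means by over 1 SD.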
